A study of Mus musculus with 16 samples.

Results

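The 10 genes described here encode enzymes that break down leucine, isoleucine and valine, the branched-chain amino acids. They were taken by gene name from the deposited tables of 54532 mouse genes, and all 10 were found and passed the filter on low counts in every comparison. They are Bcat1, Bcat2, Bckdha, Bckdhb, Dbt, Dld, Ivd, Mccc1, Mccc2 and Pcca. Their levels were measured by bulk RNA sequencing in 16 libraries from the gonadal white fat of female C57BL/6 mice, an inbred laboratory strain. Although the title of the series speaks of single cells, each library is 1 column of counts.

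Mice of the early life stress groups (MS) were parted from the dam on postnatal days 2 to 16 and weaned on day 17, and control mice (C) were weaned on day 21. The high-fat (HF) mature adipocyte fraction had 3 stress and 3 control libraries, and the high-fat preadipocyte fraction had 4 stress and 4 control libraries. The low-fat (LF) diet had 1 stress and 1 control preadipocyte library, and no low-fat adipocyte library was analysed here. Fat was digested with collagenase, adipocytes were taken off by centrifugation and filtration, and adipocyte lineage cells of the remainder, preadipocytes among them, were enriched by magnetic sorting, so neither fraction was a single purified cell type. Nothing in the labels ties a library to an animal of its own. All p-values therefore rest on the spread between libraries, part or all of which may be technical.

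Breakdown of branched-chain amino acids starts with removal of the amino group by an aminotransferase, which is cytosolic (Bcat1) or mitochondrial (Bcat2). The branched-chain ketoacid dehydrogenase complex of the mitochondrial matrix then removes a carboxyl group and commits the carbon to breakdown. Its E1 component is built from the products of Bckdha and Bckdhb, its E2 core from that of Dbt, and its E3 component, Dld, also serves the pyruvate and oxoglutarate dehydrogenases. Ivd and the carboxylase encoded by Mccc1 and Mccc2 carry on the leucine branch, while Pcca encodes the biotin-bearing subunit of propionyl-CoA carboxylase, which takes the propionyl-CoA from isoleucine and valine. The mitochondrial part of the pathway is known to be active in mature adipocytes, where its products feed the citric acid cycle and fatty acid synthesis.

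The smallest library was control adipocyte library 3, with 14182130 counts, and the largest was the low-fat control library, with 23368821. A member had 67 to 6865 counts in a library. Control high-fat preadipocyte libraries 1 and 3 differed at 7.01% of genes, against 43.0% to 79.0% in the other pairs of libraries within a group. They were counted as 1 library, with n = 3 in that group. The summed FPKM (fragments scaled for gene length and library depth) of 8 adipocyte markers was 7188 to 21012 in stress adipocytes and 6632 to 26355 in control adipocytes, against 101 to 223 in stress and 127 to 208 in control preadipocytes on the high-fat diet. The 8 progenitor markers summed to 68.4 to 223 FPKM over the 6 adipocyte libraries and to 747 to 1508 FPKM in the high-fat preadipocyte libraries. The fractions therefore carried the markers of their labels, and no adipocyte, progenitor or macrophage marker was at 0 in any library. Macrophage markers summed to 848 to 2842 FPKM in adipocyte libraries and to 643 to 3487 FPKM in high-fat preadipocyte libraries, where stress libraries 3 and 4 were highest at 2916 and 3487 FPKM.

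The first comparison asked how the 10 genes differed between mature adipocytes and preadipocytes on the high-fat diet. Of the 10, 9 were 4.39-fold to 10.6-fold higher in mature adipocytes, and Bcat1 was 2.70-fold lower. The members' median log2 fold change was 2.93, against −0.22 over the 16101 genes tested with edgeR's quasi-likelihood F test. Of all genes tested, 26.9% were called higher and 34.6% lower in mature adipocytes at an adjusted p under 0.05 (Benjamini-Hochberg). The 9 genes that were higher did not overlap in FPKM between the 6 adipocyte libraries and the preadipocyte libraries of either diet. The same held for 16.9% of all genes tested and for 21 of 23 other mitochondrial proteins. In bulk samples, fewer cells of a type and less RNA per cell cannot be told apart.

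**Figure D1:**
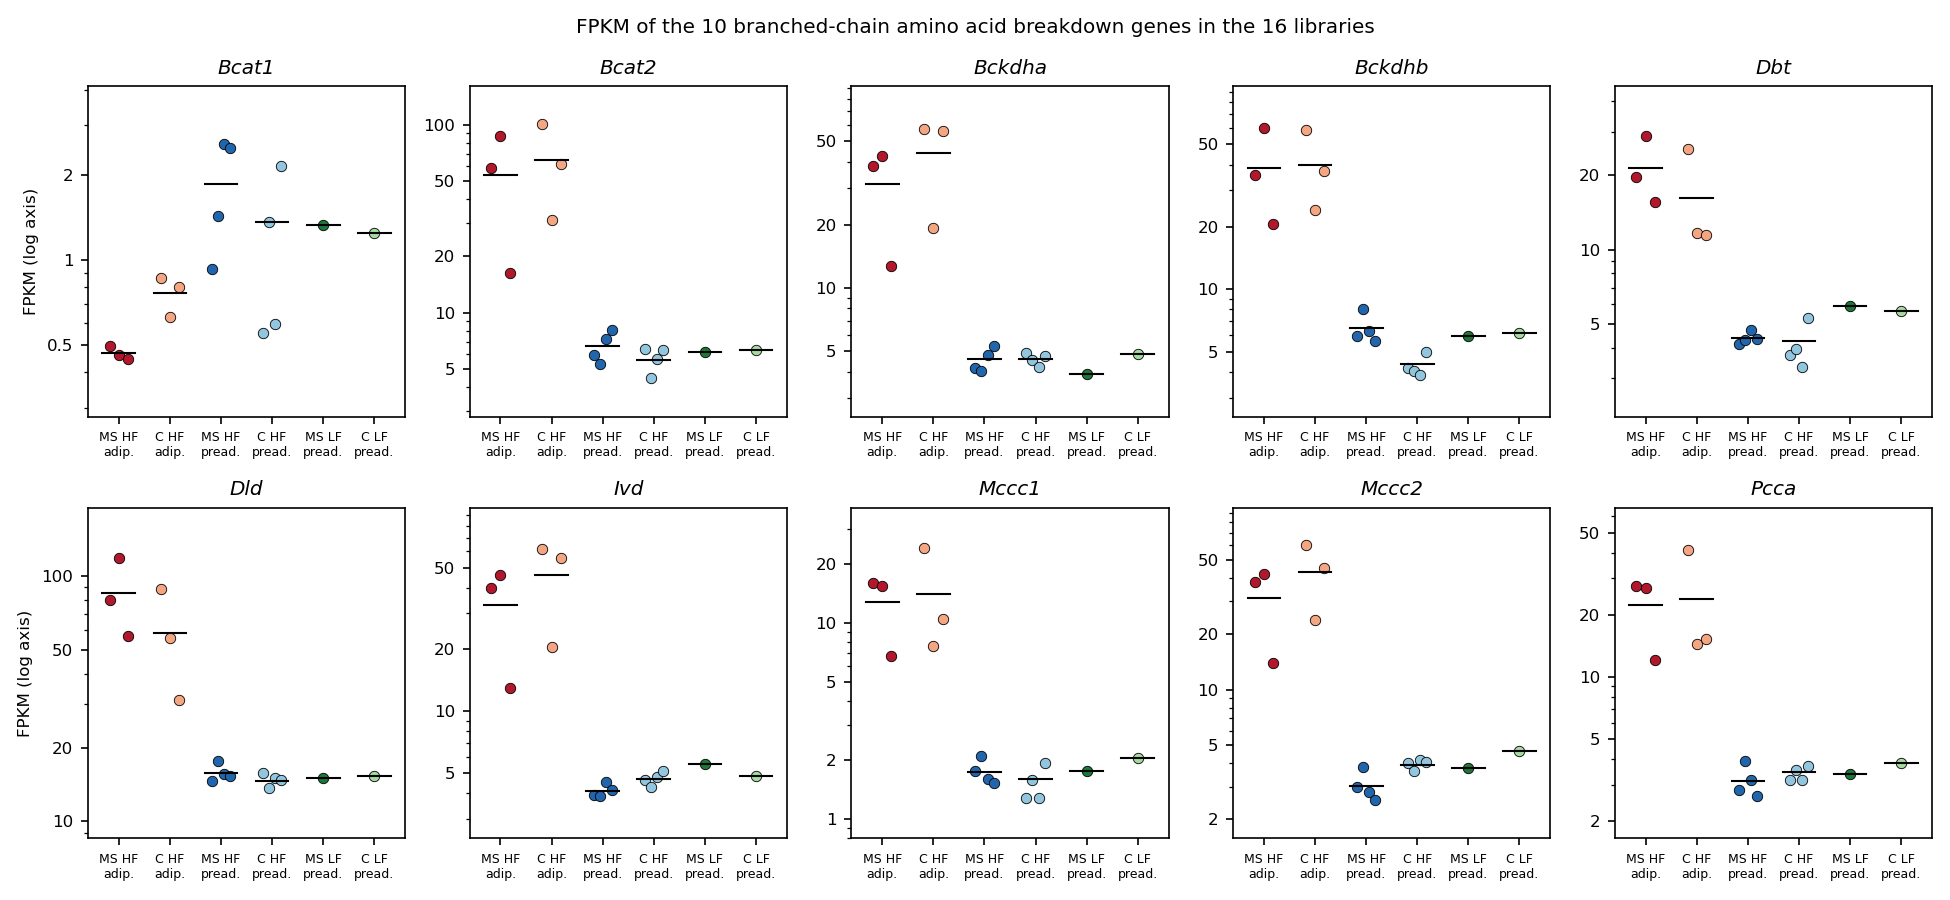
FPKM of each of the 10 genes (log axis, 1 panel per gene, each with its own range) by group, left to right stress (MS) and control (C) high-fat (HF) adipocytes, stress and control high-fat preadipocytes, and stress and control low-fat (LF) preadipocytes. Points are libraries and bars are group means with the near-identical control pair averaged first; every gene but Bcat1 lay higher in all 6 adipocyte libraries than in any preadipocyte library.

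The aminotransferases split between the fractions. Bcat2 had 59.0, 87.2 and 16.2 FPKM in the stress adipocyte libraries and 100.4, 31.3 and 62.1 FPKM in the control adipocyte libraries. In high-fat preadipocytes it had 5.96, 5.35, 7.27 and 8.04 FPKM in stress libraries and 6.37, 4.46, 5.69 and 6.36 FPKM in control libraries. The lowest adipocyte library thus stood above the highest preadipocyte library, while the adipocyte libraries differed among themselves by a factor of 6.2. The log2 fold change was 3.25 ± 0.35 (SE, edgeR adjusted p = 2.34e-06).

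Bcat1 stood at a far lower level and went the other way. It had 0.496, 0.461 and 0.445 FPKM in stress adipocytes and 0.863, 0.630 and 0.800 FPKM in control adipocytes. In high-fat preadipocytes it had 0.931, 1.44, 2.58 and 2.50 FPKM in stress libraries and 0.551, 1.37, 0.592 and 2.15 FPKM in control libraries. The groups overlapped, since the near-identical control preadipocyte libraries lay among the adipocyte values. The log2 fold change was −1.44 ± 0.35 (edgeR adjusted p = 0.00254). In control libraries alone it was −0.78 (edgeR adjusted p = 0.237), and in stress libraries alone it was −1.85 (edgeR adjusted p = 0.00562).

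The 2 highest preadipocyte values of Bcat1 were in stress libraries 3 and 4, which also had the highest summed macrophage markers and the highest summed cell cycle markers, 32.1 and 42.2 FPKM over 5 genes against 7.38 to 15.4 FPKM in the other high-fat preadipocyte libraries. Without these 2 libraries the Bcat1 difference was −1.04 (edgeR adjusted p = 0.0104). Control library 4, at 2.15 FPKM of Bcat1, had the 15.4 FPKM of cell cycle markers, the highest sum among those other libraries. Its macrophage markers summed to 1523 FPKM, less than the 1971 and 1849 FPKM of control libraries 1 and 3, where Bcat1 was lowest. The part of other cell types in the Bcat1 level was not tested further.

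As a ratio of FPKM values within a library, Bcat2 over Bcat1 was 36.4 to 189 in the stress adipocyte libraries and 49.6 to 116 in the control ones. In preadipocytes it was 2.82 to 6.41 in high-fat stress libraries, 2.96 to 11.5 in high-fat control libraries, 4.63 in the low-fat stress library and 5.03 in the low-fat control library. The mitochondrial aminotransferase was thus the more abundant transcript per length in each of the 16 libraries, and the ratio did not overlap between fractions.

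The upstream sequence of both aminotransferase genes is shown because they are the members that moved in opposite directions between the fractions. Each line gives the 250 bases before a RefSeq start site on GRCm38.p6, read on the gene's own strand. The Bcat1 window is chr6:145076158-145076407 on the minus strand, before the start site closest to the 5′ end of the gene in the deposited table (chromosome 6, 144993835 to 145076184). The Bcat2 window is chr7:45569903-45570152 on the plus strand, directly before the gene (chromosome 7, 45570153 to 45589711).
Bcat1: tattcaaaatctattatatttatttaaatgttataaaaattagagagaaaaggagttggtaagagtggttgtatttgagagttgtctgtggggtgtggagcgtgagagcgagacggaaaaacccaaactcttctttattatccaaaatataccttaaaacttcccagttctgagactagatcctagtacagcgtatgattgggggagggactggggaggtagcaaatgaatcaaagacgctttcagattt
Bcat2: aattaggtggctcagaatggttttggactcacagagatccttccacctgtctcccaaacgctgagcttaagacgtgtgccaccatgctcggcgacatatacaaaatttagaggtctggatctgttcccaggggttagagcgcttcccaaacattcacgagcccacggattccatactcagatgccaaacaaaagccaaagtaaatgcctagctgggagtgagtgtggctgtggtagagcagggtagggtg
Neither window held any of 5 short motifs searched on both strands of 300-base windows (250 before to 50 after a start site). These were AGGTCAAAG (the start of a direct repeat bound by PPAR and other nuclear receptors), TCAAGGTCA (estrogen-related receptor), TTGCNNAA (C/EBP), CACGTG (E-box) and TGACGTCA (CRE).

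The complex that commits the carbon to breakdown rose in all 4 of its components. Bckdha, which encodes the E1 alpha subunit, had 38.2, 42.6 and 12.8 FPKM in stress adipocytes and 57.4, 19.4 and 55.9 FPKM in control adipocytes. Its high-fat preadipocyte values were 4.02 to 5.32 FPKM in stress libraries and 4.22 to 4.89 FPKM in control libraries. The preadipocyte libraries were close together, and the adipocyte libraries spread over a factor of 4.49. Between fractions the difference was 2.99 ± 0.29 on the log2 scale (edgeR adjusted p = 1.03e-06).

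Bckdhb, the E1 beta subunit gene, had 35.5, 59.8 and 20.6 FPKM in stress adipocytes and 58.5, 24.1 and 37.1 FPKM in control adipocytes. High-fat preadipocytes had 5.60 to 8.0 FPKM in stress libraries and 3.87 to 4.96 FPKM in control libraries. Bckdhb thus had a log2 fold change of 2.87 ± 0.26 (edgeR adjusted p = 4.33e-07). Both E1 subunit genes had larger estimates than Dbt and Dld, a difference between genes that was not tested.

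Dbt, the E2 core, had 19.7, 28.9 and 15.6 FPKM in stress adipocytes and 25.7, 11.7 and 11.4 FPKM in control adipocytes. Its high-fat preadipocyte range was 4.14 to 4.73 FPKM in stress libraries and 3.35 to 5.28 FPKM in control libraries. At 2.13 ± 0.22 on the log2 scale (edgeR adjusted p = 1.79e-06), it had the smallest increase of the 9 genes.

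Dld, the E3 component shared with other dehydrogenases, was the most abundant member per length in preadipocytes and, by its median, in adipocytes. It had 79.8, 119 and 57.1 FPKM in stress adipocytes and 88.1, 55.8 and 31.3 FPKM in control adipocytes. High-fat preadipocytes had 14.6 to 17.7 FPKM in stress libraries and 13.7 to 15.8 FPKM in control libraries. Its log2 fold change was 2.24 ± 0.24 (edgeR adjusted p = 1.95e-06). The 6 other component genes of the pyruvate and oxoglutarate dehydrogenases were also all called higher, with a median log2 fold change of 2.11.

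In the leucine branch, Ivd encodes isovaleryl-CoA dehydrogenase, which passes its electrons to the electron transfer flavoprotein. It had 39.8, 46.1 and 12.9 FPKM in stress adipocytes and 61.3, 20.5 and 55.7 FPKM in control adipocytes. The high-fat preadipocyte values were 3.85 to 4.50 FPKM in stress libraries and 4.26 to 5.14 FPKM in control libraries. Its log2 fold change was 3.13 ± 0.29 (edgeR adjusted p = 5.93e-07). Etfa and Etfb, the flavoprotein's subunit genes, and Etfdh, the oxidoreductase that takes its electrons, were also called higher, with a median of 2.22.

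Mccc2, the beta subunit gene of methylcrotonyl-CoA carboxylase, had the largest difference of the 10. It had 38.0, 42.1 and 13.8 FPKM in stress adipocytes and 59.9, 23.8 and 45.1 FPKM in control adipocytes, against 2.97, 3.84, 2.79 and 2.52 FPKM in high-fat stress preadipocytes and 4.01, 3.63, 4.19 and 4.06 FPKM in high-fat control preadipocytes. The log2 fold change was 3.41 ± 0.26 (edgeR adjusted p = 1.09e-07). Its partner Mccc1, the biotin-bearing alpha subunit gene, had 15.9, 15.4 and 6.74 FPKM in stress adipocytes and 24.1, 7.59 and 10.4 FPKM in control adipocytes. High-fat preadipocytes had 1.51 to 2.08 FPKM of Mccc1 in stress libraries and 1.27 to 1.92 FPKM in control libraries, with a log2 fold change of 3.01 ± 0.27 (edgeR adjusted p = 4.74e-07). Per length, the beta subunit transcript exceeded the alpha subunit transcript in every library.

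Pcca had 27.7, 26.9 and 12.1 FPKM in stress adipocytes and 41.4, 14.5 and 15.3 FPKM in control adipocytes. High-fat preadipocytes had 2.64 to 3.92 FPKM in stress libraries and 3.16 to 3.71 FPKM in control libraries. The log2 fold change was 2.81 ± 0.27 (edgeR adjusted p = 6.89e-07), close to the 2.57 ± 0.25 of Pccb, which encodes the other subunit of the carboxylase.

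Among 13 RefSeq start site windows of 9 members, 2 held one of the 5 motifs. They are shown because Mccc2 had the largest difference between fractions and Dld was the most abundant member per length in preadipocytes. The Mccc2 window is chr13:100015640-100015889 and the Dld window chr12:31351472-31351721, both on the minus strand of GRCm38.p6. Capitals mark CACGTG before Mccc2 and, before Dld, the reverse-strand form of TTGCNNAA.
Mccc2: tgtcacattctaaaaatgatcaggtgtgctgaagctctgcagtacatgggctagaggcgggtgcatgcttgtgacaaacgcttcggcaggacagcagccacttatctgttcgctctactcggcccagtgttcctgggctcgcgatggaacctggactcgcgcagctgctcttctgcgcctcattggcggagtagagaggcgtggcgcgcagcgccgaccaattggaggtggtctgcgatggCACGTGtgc
Dld: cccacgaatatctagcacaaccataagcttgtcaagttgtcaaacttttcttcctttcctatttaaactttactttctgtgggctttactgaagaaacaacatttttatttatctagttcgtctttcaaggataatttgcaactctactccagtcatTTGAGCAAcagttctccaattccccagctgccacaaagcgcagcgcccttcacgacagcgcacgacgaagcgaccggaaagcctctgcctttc
CACGTG was found in 7.15% and TTGCNNAA in 10.8% of 32851 such windows over all genes, with the motifs searched separately. AGGTCAAAG, in 0.426% of all windows, TCAAGGTCA, in 0.423%, and TGACGTCA, in 1.79%, were in none of the members' windows. A match is only a run of letters, and no binding was measured.

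Genes that regulate the pathway, carry its substrates or catalyse its other steps were described from a list of 28. Of these, 20 were called higher and 2 lower in mature adipocytes (edgeR, adjusted p under 0.05), and the list's median log2 fold change was 1.75. Bckdk, the kinase that switches the ketoacid dehydrogenase off, had a log2 fold change of 1.85 ± 0.24 (edgeR adjusted p = 1.16e-05), and Klf15, a transcription factor known in muscle and liver to raise amino acid breakdown genes, one of 2.46 ± 0.31 (edgeR adjusted p = 9.73e-06). Ppm1k, the phosphatase that switches the complex on, did not pass, at −0.23 ± 0.20 (edgeR adjusted p = 0.355). The ratio of kinase to phosphatase FPKM was 11.1 to 37.1 in stress and 18.1 to 27.0 in control adipocytes, against 3.42 to 6.07 in stress and 4.23 to 5.28 in control preadipocytes on the high-fat diet. The ratio did not overlap between fractions.

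**Figure D2:**
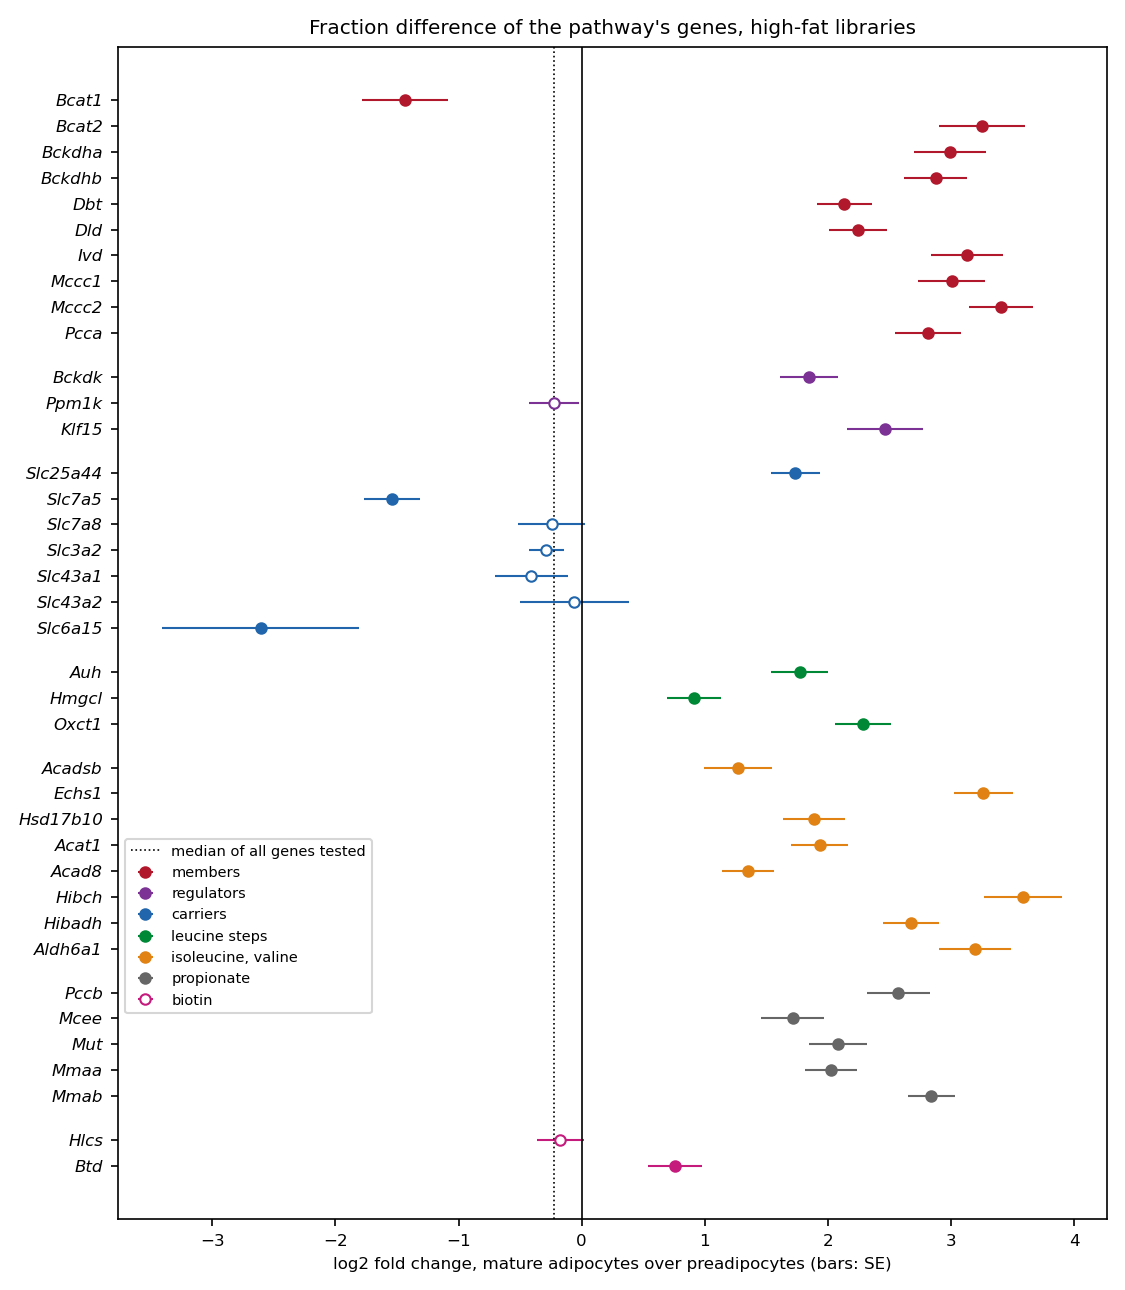
Log2 fold change of mature adipocytes over preadipocytes on the high-fat diet for the 10 members and 28 other genes of the pathway, with SE bars; filled points passed an adjusted p of 0.05 and open points did not. The members other than Bcat1 and all leucine, isoleucine and valine, and propionate steps lie right of 0. Bcat1, Slc7a5 and Slc6a15 lie left of it as filled points, and Ppm1k, Hlcs, Slc7a8, Slc3a2, Slc43a1 and Slc43a2 as open points.

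The 7 carriers did not move as a group. Slc25a44, which brings branched-chain amino acids into mitochondria, rose by 1.74 ± 0.20 on the log2 scale (edgeR adjusted p = 3.72e-06). Slc7a5, the light chain of a plasma membrane exchanger of large neutral amino acids, had 2.15 to 2.92 FPKM in stress adipocytes and 2.08 to 4.19 FPKM in control adipocytes, against 5.84 to 10.7 FPKM in stress and 5.86 to 11.3 FPKM in control preadipocytes on the high-fat diet. Its log2 fold change was −1.54 ± 0.22 (edgeR adjusted p = 3.78e-05), and that of Slc6a15, a sodium-coupled carrier with 0 to 0.4745 FPKM per library, was −2.61 ± 0.80 (edgeR adjusted p = 0.0109). Slc6a15 had only 0 to 20 counts in the adipocyte libraries and 6 to 64 in the high-fat preadipocyte libraries. It did not pass the low-count filter in the fit of adipocytes alone, so its difference between fractions rests on counts near the floor. Slc7a8, Slc3a2, Slc43a1 and Slc43a2 did not pass, with values of −0.41 to −0.06.

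All 3 of the further leucine steps, 8 of 8 isoleucine and valine steps and 5 of 5 propionate steps were called higher. Hibch, a hydrolase of valine breakdown, had the largest value of these at 3.59 ± 0.32 (edgeR adjusted p = 3.63e-07), followed by the hydratase Echs1 at 3.26 ± 0.24 (edgeR adjusted p = 8.33e-08) and the dehydrogenase Aldh6a1 at 3.20 ± 0.29 (edgeR adjusted p = 5.23e-07). Oxct1, which activates ketone bodies, was at 2.28 ± 0.23 (edgeR adjusted p = 1.16e-06), and Mmab, of cobalamin handling, at 2.84 ± 0.19 (edgeR adjusted p = 4.34e-08). Of the biotin genes, the recycling enzyme Btd passed at 0.76 ± 0.22 (edgeR adjusted p = 0.00786) and the ligase Hlcs did not, at −0.17 ± 0.19 (edgeR adjusted p = 0.449).

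The increase was not limited to this pathway. Of 23 other mitochondrial proteins, chosen from the citric acid cycle, the respiratory chain, import and upkeep, 22 were called higher, with a median log2 fold change of 2.38, and Tfam, a factor of mitochondrial DNA, did not pass at 0.13. An added alternative scaled the libraries to these 23 genes, which moved the median of all genes to −2.32 and that of the members to 0.69. On that scale 14487 of the 16101 genes tested were called in either direction. Of the members, 7 were still higher, from 0.57 for Pcca (edgeR adjusted p = 0.0222) to 1.18 for Mccc2 (edgeR adjusted p = 1.70e-04). Bcat2 stood at 0.97, Ivd at 0.91, Bckdha at 0.78, Mccc1 at 0.76 and Bckdhb at 0.62 (edgeR adjusted p = 0.00317 to 0.0159). Dbt, at −0.09, and Dld, at 0.01, no longer passed, and Bcat1 was at −3.54.

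Adipocyte libraries differed more from each other than preadipocyte libraries did. The members' median coefficient of variation was 44.7% in stress and 48.8% in control adipocytes, against 15.4% in stress and 10.9% in control preadipocytes on the high-fat diet. Bcat1 ran against this, with 5.50% and 15.8% in stress and control adipocytes and 43.5% and 57.9% in stress and control preadipocytes. Among the adipocyte libraries, Bcat2 was highest where the summed adipocyte markers were highest (control library 1, 26355 FPKM) and followed their order in all but the 2 lowest libraries, control library 2 and stress library 3 with 6632 and 7188 FPKM. The part of adipocyte content in this spread was not tested.

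Control adipocyte library 3 stood apart in a way that touched the balance of subunits. Across 10719 genes over 5 CPM (counts scaled to a common library depth), its deviation from the median adipocyte library rose with the GC content of the gene's longest transcript by 0.457 on the log2 scale per 10% GC, against −0.186 to 0.0760 in the other 5 adipocyte libraries. The low-GC members Dld (40.6% GC), Dbt (42.1%), Mccc1 (43.1%) and Pcca (46.8%) were below their adipocyte median there, by −1.11, −0.62, −0.28 and −0.41. The GC-richer Bckdha (57.9%), Bcat2 (54.3%), Ivd (51.1%), Mccc2 (51%) and Bckdhb (50.3%) were above theirs, by 0.03 to 0.47. Bcat1 did not follow this split: at 47.2% GC, close to Pcca, it was above its median by 0.52, the most of the 10 members.

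**Figure D3:**
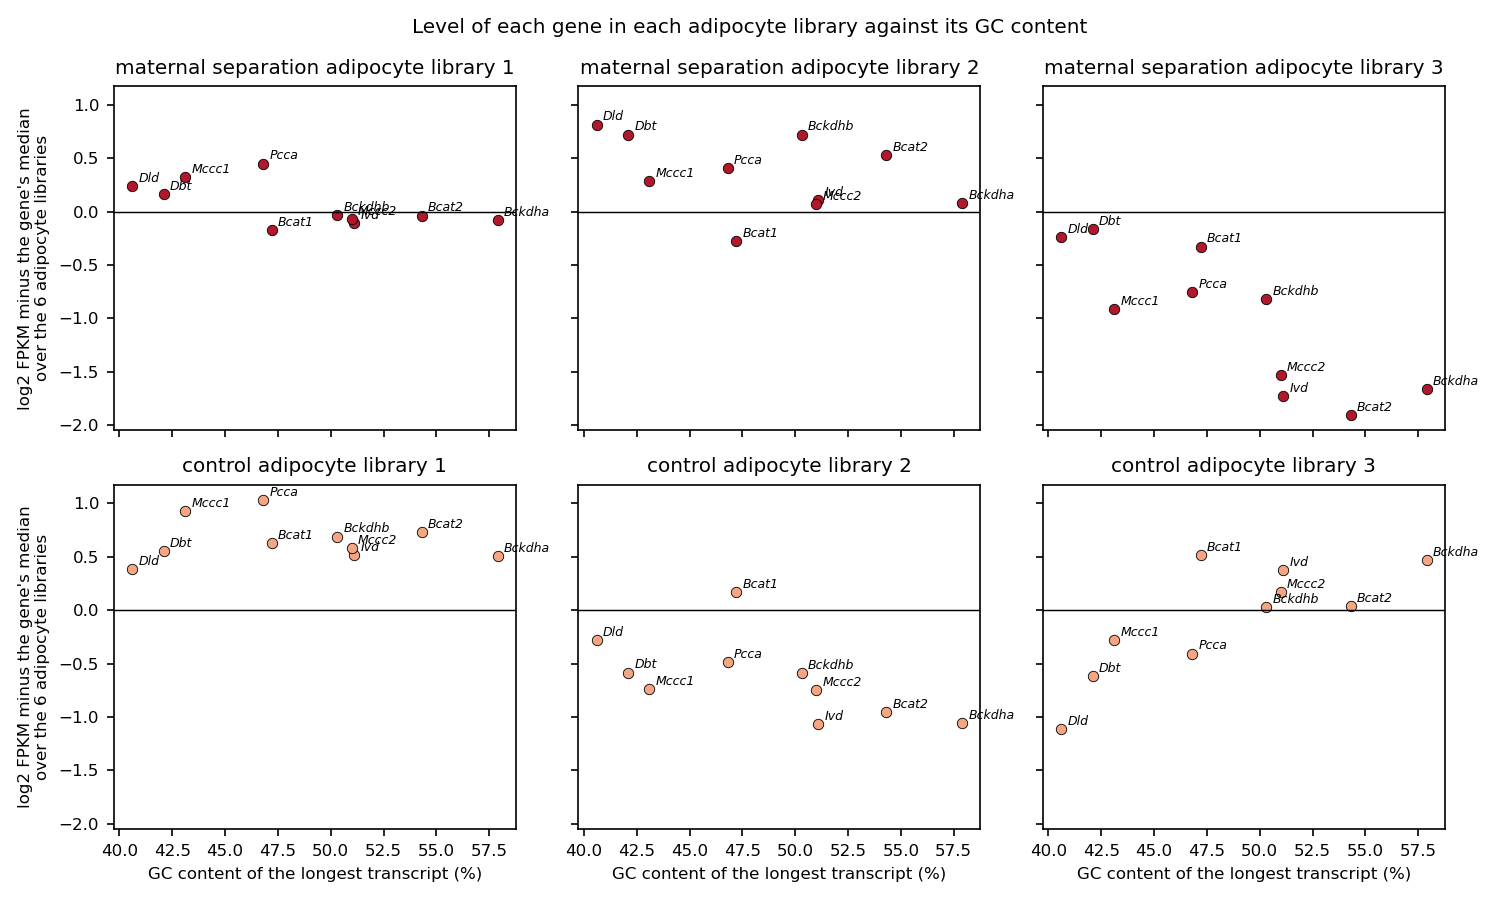
Deviation of each member in each of the 6 adipocyte libraries (log2 FPKM minus the gene's median over these libraries) against the GC content in percent of its longest transcript; stress libraries are in the top row and control libraries in the bottom row. In control library 3 the 4 members of lowest GC content lie below 0, and in stress library 3 and control library 2 the lowest points are GC-rich members.

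Ratios between subunits of 1 enzyme moved with this library. Bckdha over Dbt was 0.818 to 1.94 in the stress adipocyte libraries and 2.23, 1.66 and 4.89 in control adipocyte libraries 1, 2 and 3. Mccc2 over Mccc1 was 2.06 to 2.73 in stress adipocytes and 2.48, 3.14 and 4.32 in control adipocytes. Pccb over Pcca was 2.47 to 3.56 in stress adipocytes, 2.94 or more in control adipocyte libraries 1 and 2 and 7.27 in control adipocyte library 3. Each of these 3 ratios was higher in control adipocyte library 3 than in any of the other 15 libraries. Ratios were not tested between treatments.

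**Figure D4:**
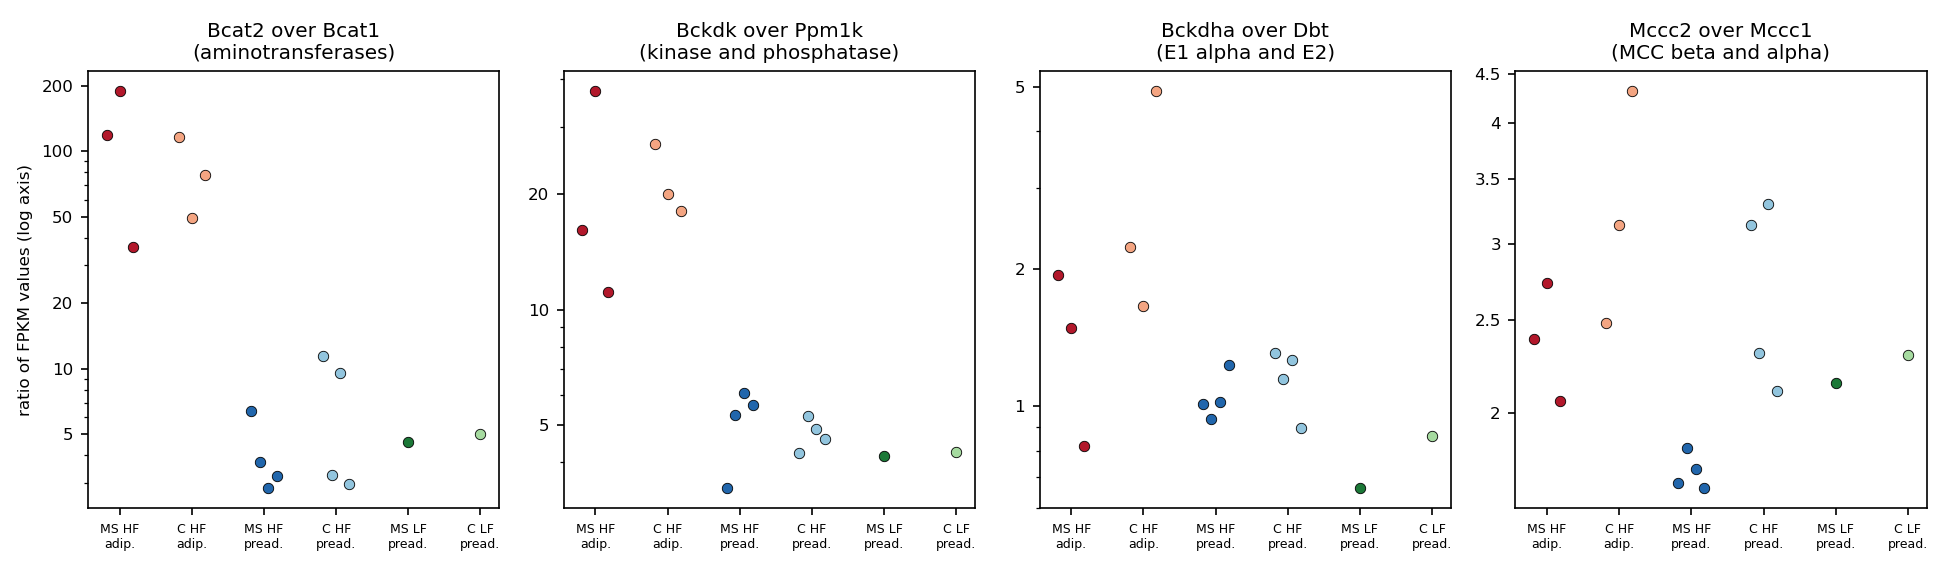
Ratio of FPKM values within each library (log axis) for Bcat2 over Bcat1, Bckdk over Ppm1k, Bckdha over Dbt and Mccc2 over Mccc1, by group with stress (MS) left of control (C). The first 2 ratios do not overlap between adipocytes and preadipocytes, while the last 2 do and peak in control adipocyte library 3.

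The second comparison asked whether early life stress changed the members in mature adipocytes on the high-fat diet, and no member passed. The log2 differences, stress over control, ran from −0.66 ± 0.44 for Bcat1 to 0.57 ± 0.43 for Dld, with a median of −0.16 against −0.01 over 14485 genes. With edgeR's quasi-likelihood test 0 genes, 0%, were called at an adjusted p under 0.05, 417 genes had an unadjusted p under 0.05 with no member among them, and DESeq2 called 9 genes, none of them a member. Bcat1 averaged 0.467 ± 0.0257 FPKM in stress adipocytes and 0.764 ± 0.121 FPKM in control adipocytes (SD, n = 3 each), and the 3 stress libraries lay below the 3 control libraries (edgeR adjusted p = 0.9996). It was the lowest of the members, with 67 to 141 counts per library here. The share of all genes with no overlap between treatments was not counted.

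The mitochondrial members fell on both sides of 0. Bckdha averaged 31.2 ± 16.1 FPKM in stress adipocytes and 44.2 ± 21.5 FPKM in control adipocytes, a log2 difference of −0.45 ± 0.50. Dbt averaged 21.4 ± 6.78 and 16.3 ± 8.17 FPKM in stress and control adipocytes, a difference of 0.43 ± 0.38, and Dld averaged 85.2 ± 31.1 and 58.4 ± 28.5 FPKM. These were the GC-poor and GC-rich members whose values in control adipocyte library 3 were described above. Bcat2, Bckdhb, Mccc1 and Pcca, with differences of −0.22, −0.02, −0.09 and −0.04, had positive values without stress library 3 (0.22, 0.28, 0.21 and 0.25) or without control library 1 (0.22, 0.34, 0.51 and 0.58). Without control adipocyte libraries 1 and 3, in which 18091 and 15344 genes were detected against 18400 to 20964 in the other adipocyte libraries, 9 of 10 members had positive differences with a median of 0.61. That value sets the 3 stress libraries against 1 control library, library 2, with the lowest adipocyte marker sum, and describes that library; the fit assumes that it varies like the stress libraries. The summed adipocyte markers were 10258, 21012 and 7188 FPKM in the stress libraries and 26355, 6632 and 20214 FPKM in the control libraries, and their part in these differences was not tested.

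**Figure D5:**
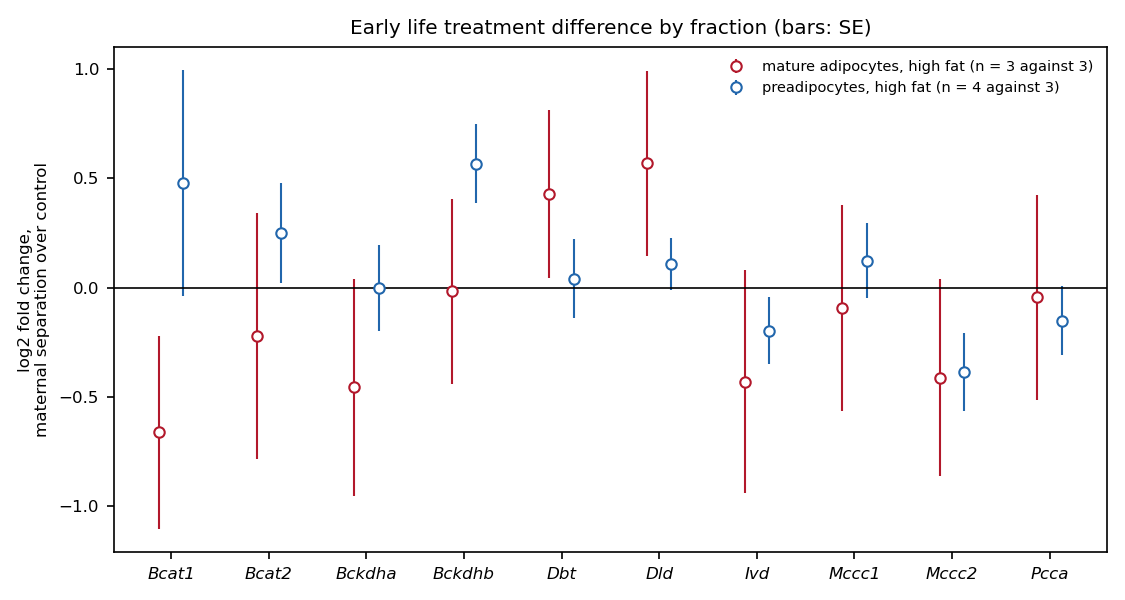
Log2 fold change of maternal separation over control for the 10 members, with SE bars, in high-fat mature adipocytes (red, left of each pair) and high-fat preadipocytes (blue, right). Bars are wider in adipocytes, and no point passed an adjusted p of 0.05.

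The third comparison put the same question to preadipocytes on the high-fat diet. With edgeR 0 of 17129 genes, 0%, were called, 496 had an unadjusted p under 0.05, and DESeq2 called 4 genes, none of them a member. The members ran from −0.39 ± 0.18 (Mccc2) to 0.57 ± 0.18 (Bckdhb), with a median of 0.07 against 0.02 over all genes. The SE was 0.12 to 0.23 for the members other than Bcat1 and 0.52 for Bcat1.

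Bckdhb was the only member of the 10 with an unadjusted p under 0.05 in this comparison. It had 5.96, 8.0, 6.29 and 5.60 FPKM in stress preadipocytes and 4.18, 4.01, 3.87 and 4.96 FPKM in control preadipocytes on the high-fat diet. The groups did not overlap, and the share of all genes without overlap was not counted for this comparison. The edgeR p was 0.0140 before adjustment and 0.973 after it, and adjusted values over the alternatives tried ran from 0.598 to 1. On the low-fat diet Bckdhb had 5.94 FPKM in the stress library and 6.16 FPKM in the control library, so the low-fat control library stood with the stress libraries. Bckdha, its partner in E1, had a difference of −0.0026 ± 0.20.

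Mccc2 had the lowest value, −0.39, but the groups overlapped and its unadjusted edgeR p was 0.0631 (adjusted 0.973). Ivd averaged 4.10 ± 0.297 FPKM in stress preadipocytes (SD, n = 4) and 4.70 ± 0.441 FPKM in control preadipocytes (SD, n = 3), a log2 difference of −0.20 ± 0.15. Bcat1 averaged 1.86 ± 0.811 and 1.36 ± 0.790 FPKM in stress and control preadipocytes, with a difference of 0.48 ± 0.52. Without stress libraries 3 and 4, which were high in macrophage markers, the Bcat1 difference was −0.27.

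The interaction of stress and fraction asked whether the stress difference was unlike in the 2 fractions. With edgeR 0 of 17948 genes, 0%, were called, 873 had an unadjusted p under 0.05 with no member among them, and DESeq2 called 3 genes, none of them a member. Bcat1 had the lowest term, −1.07 ± 0.62 (edgeR adjusted p = 0.934), and Dld the highest, 0.49 ± 0.44. The fit could not tell either from 0.

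The diet comparison set 8 high-fat preadipocyte libraries, with the near-identical pair as 1, against the 2 low-fat ones. With edgeR 0 of 18468 genes, 0%, were called and 2360 had an unadjusted p under 0.05, while DESeq2 called 416 genes, none of them a member. The members' log2 differences, high fat over low fat, ran from −0.40 to 0.32, with a median of −0.15 against 0.02 over all genes. Dbt had 4.14, 4.29, 4.73 and 4.32 FPKM in high-fat stress libraries and 3.73, 3.94, 3.35 and 5.28 FPKM in high-fat control libraries, against 5.90 FPKM in the low-fat stress library and 5.60 FPKM in the low-fat control library. Every high-fat library lay below both low-fat libraries, and the log2 difference was −0.40 ± 0.17. How many of all genes were split by diet in this way was not counted. Dbt was among the 2360 genes with an unadjusted p under 0.05, and its edgeR adjusted p was 0.381.

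Dbt was also lower on the high-fat diet within each treatment, by −0.45 in stress and −0.40 in control libraries as log2 ratios of means. Bckdhb was not alike within treatments, at 0.10 in stress and −0.51 in control libraries, nor was Ivd, at −0.44 and −0.05; with 1 low-fat library of each kind, these values have no test. Dld had a log2 difference between diets of 0.01 ± 0.12, with 15 FPKM in the low-fat stress library and 15.4 FPKM in the low-fat control library.

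The 2 low-fat libraries, 1 stress and 1 control, were set side by side with no replicate check. The members' log2 ratios, stress over control, ran from −0.33 to 0.16, inside the −0.50 and 0.49 that bound the middle of 9511 genes that reached 10 CPM in 1 or both of them (5th and 95th percentiles). Mccc2 was at −0.33, with an exact 95% interval for counting error only of −0.59 to −0.08, and Bckdha was at −0.33, with an interval of −0.64 to −0.03. Mccc1 was at −0.23, with an interval of −0.43 to −0.05, and Pcca was at −0.21, with an interval of −0.42 to −0.02. Ivd was at 0.16, with an interval of −0.01 to 0.32, and the intervals of the members not named here also included 0.

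Across 15 libraries, with the pair as 1, the genes whose log2 CPM followed Bcat2 most closely among 16100 genes were Exosc5 (Pearson r = 0.991), Acaa1a (0.990), Bckdha (0.990), Nfs1 (0.989) and Ivd (0.988). Bcat1 was followed most closely by Adam23 (0.935), Alx4 (0.908), Col18a1 (0.874), Fgf23 (0.865) and Pycr1 (0.858). These correlations describe libraries that share the split between fractions, so each gene that is high in adipocytes resembles Bcat2 to some degree. Exosc5 lies 183 bases from Bckdha on chromosome 7, on the opposite strand and facing away from it, and both are among the 5 genes closest to Bcat2.

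Some members share their locus with other genes, and the strand setting of the counting is not given in the sources used here. B3gnt8 overlaps Bckdha on the opposite strand and had 24 to 392 counts, up to 246% of those of Bckdha in a library. Ggact overlaps Pcca on the opposite strand with 28 to 396 counts, up to 22.5% of those of Pcca. The antisense gene Gm26666 had at most 18 counts, up to 20.9% of those of Bcat1. If reads were counted without strand, reads from these overlaps cannot be told apart from those of the members.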

How the data were processed

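The 10 members and the gene lists were chosen with earlier results of these data known. The authors deposited a table of counts and a table of FPKM values, each with 16 libraries. Per the submitters' processing notes, the tools were STAR 2.6.1d, DESeq2 1.20.0 and edgeR 3.24.3, and the builds GRCm38 and mm10. How reads were assigned to genes, by which annotation and with or without strand, is not given in the sources used here. The authors' FPKM equal counts over gene length and depth, multiplied in each library by a factor of its own, from 0.860 to 1.26, so they were also scaled between libraries.

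Counts were tested across all genes with edgeR 4.0.16 in R 4.3.3 (TMM, filterByExpr, robust quasi-likelihood fit and F test). P-values were adjusted by Benjamini-Hochberg and read at 0.05. The SE of an edgeR log2 fold change was derived from the test, as the absolute fold change on that scale over the square root of F. The fraction and interaction fits used the high-fat libraries with treatment as a term, the stress fits 1 fraction each, and the diet fit the preadipocyte libraries with treatment as a covariate. Control high-fat preadipocyte libraries 1 and 3 were summed into 1 library and averaged in FPKM. No label pairs same-numbered libraries, and they did not deviate together in every pair, so numbers were not used as pairs. Correlations of their deviations ran from −0.31 to 0.27 between fractions and from −0.50 to 0.64 between treatments. These values cannot show whether libraries of both fractions came from the same animal. Fits were tested on simulated data, with larger changes than the members' stress, interaction and diet differences. The simulated libraries also varied less than the adipocyte libraries. That test therefore does not show what those fits could detect. All members are named. Of the other pathway genes, those that passed are named, at most the 3 largest in each direction per group, with some that did not pass. GC content came from the longest GENCODE M21 transcript, for 99.9% of the genes tested. Promoter windows are RefSeq's on GRCm38.p6. Gene coordinates are those of the deposited table, on GRCm38. Alternatives were DESeq2 1.42.0, its size factors, limma 3.58.1 on log2(FPKM + 0.1) and log2(FPKM + 1), other filters, a replicate block, the near-identical pair kept apart, and libraries left out.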

Additional observations from a re-analysis of the deposited data

How the results depend on the processing

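Of the 10 members, 8 to 10 were called between fractions under each alternative run, 0 in every stress, interaction and diet fit. All genes called between fractions were 9905 in the main fit and 5998 in control libraries only. They were 12235 without the low-count filter and 14487 when scaled to other mitochondrial proteins. Scaled to other mitochondrial proteins, which was chosen after seeing the data, Dbt was at −0.093 and Dld lost its call. With the replicate block Bcat1 lost its call between fractions (−0.77, edgeR adjusted p = 0.135), Pcca was at 0.022 under stress in adipocytes, 1 gene was called under stress in preadipocytes, and no other call of a member changed. Counts of all genes called, 0 with edgeR, were 9 (stress in adipocytes), 4 (stress in preadipocytes), 3 (interaction) and 416 (diet, with 1 other pathway gene) with DESeq2. Without the low-count filter they were 51 (stress in adipocytes) and 1 (diet), and 1 with limma on log2(FPKM + 0.1) for diet. Bckdhb was at 0.016 in adipocytes without that filter.

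Leaving out 1 library at a time gave these ranges, with 1 low-fat library left, assumed to vary like the high-fat ones, where a low-fat library was dropped. Under stress in adipocytes Bcat2 ran from −0.65 to 0.22, Bckdhb from −0.39 to 0.34, Mccc1 from −0.37 to 0.51, Pcca from −0.29 to 0.58 and all genes called from 0 to 9 (9 without control library 2). Under stress in preadipocytes Dbt ran from −0.059 to 0.22. For the interaction Bcat2 ran from −0.86 to 0.027, Ivd from −0.51 to 0.19, Mccc1 from −0.45 to 0.43 and Pcca from −0.094 to 0.77. For diet Bckdha ran from −0.057 to 0.25, Bckdhb from −0.50 to 0.13, Dld from −0.060 to 0.084 and all genes called from 0 to 1 (1 without control library 4).

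Without control adipocyte libraries 1 and 3, which leaves 1 control adipocyte library, assumed to vary like the other groups and with values that describe that library, the stress values in adipocytes were 0.72 for Bcat2, 0.62 for Bckdha, 0.61 for Bckdhb, 0.62 for Ivd, 0.68 for Mccc1, 0.33 for Mccc2 and 0.56 for Pcca, and the interaction was 0.52 for Bcat2, 0.68 for Bckdha, 0.079 for Bckdhb, 0.86 for Ivd and 0.60 for Mccc1. Without stress preadipocyte libraries 3 and 4, the stress values in preadipocytes were −0.27 for Bcat1, −0.056 for Bcat2 and −0.077 for Dbt, and the diet values were −0.043 for Bcat1, −0.017 for Bckdha and −0.0061 for Dld. The cause of these changes was not tested. The 2 low-fat libraries have no replicate, and the members' SE of 0.38 to 0.56 in the adipocyte stress fit limits what could be detected there.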

Other observations

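Under early life stress in mature adipocytes, the 6 other component genes of the pyruvate and oxoglutarate dehydrogenases all had positive differences, with a median log2 difference of 0.57 from 0.17 to 0.93, and 21 of 23 other mitochondrial proteins were positive with a median of 0.30. The 10 branched-chain genes had 2 positive values and a median of −0.16 in the same fit, and 0 genes of any of these lists passed with edgeR. Of all 14485 genes tested in that fit, 7123 had positive differences, with a median of −0.01. Each of the 6 component genes was highest in stress adipocyte library 2. Pdha1, Pdhb, Dlat and Pdhx, with 45.5% to 47.2% GC, were lowest in control adipocyte library 3, whose GC dependence was described above. Ogdh and Dlst were lowest in stress adipocyte library 3. The difference between the lists, and the part of single libraries in it, were not tested.

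In high-fat against low-fat preadipocytes, Slc3a2, the heavy chain of amino acid exchangers, had a log2 difference of 0.64 ± 0.17 and Acadsb, a dehydrogenase of isoleucine breakdown, one of −0.45 ± 0.19. Their unadjusted edgeR p-values were 0.00479 and 0.0410, and both had an adjusted p above 0.05 (0.320 and 0.376). Both were chosen after their values were seen, as the genes with the smallest unadjusted p of the carriers and of the isoleucine and valine steps.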
